A study of Neurospora crassa OR74A and Aspergillus nidulans FGSC A4 with 22 samples.

Results

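Glycolysis splits glucose into pyruvate, and its enzymes were followed here in wild-type *Aspergillus nidulans*, a filamentous ascomycete, as the transcripts of 10 genes out of the 10596 in the deposited table of that species. The genes are a list of glycolytic enzymes from hexokinase to pyruvate kinase, given by gene ID, and all 10 were found. The deposited tables give IDs without names, so the enzyme of each ID is stated as background knowledge. The list holds 2 genes for the phosphorylation of glucose, AN7459 (hexokinase) and AN8689 (glucokinase), and 1 gene for each of 8 further steps. Phosphoglycerate mutase, which acts between phosphoglycerate kinase and enolase, is not on it.

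Wild-type hyphae (FGSC 4A) were grown for 16 h at 37°C in medium with 1% glucose and washed. They were then moved for 6 h to medium with 2% Avicel, a microcrystalline cellulose, or to medium with no carbon source. There were 3 biological replicates per group, all of the wild type. The comparison asks how a fungus taken off glucose expresses its glycolytic genes when Avicel is the only carbon source offered, against starvation. The paper states that Avicel also carries a little hemicellulose, whose part in the values was not tested. No *A. nidulans* glucose culture was analysed here, so all levels are those of cells that had left glucose. The mRNA came from whole mycelium, in which fewer cells expressing a gene and less RNA per cell cannot be told apart.

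In glycolysis, glucose is first phosphorylated and rearranged, then cleaved by aldolase into a pair of triose phosphates, which a dehydrogenase and later kinases turn into pyruvate with a gain of ATP. The reactions of hexokinase or glucokinase, phosphofructokinase and pyruvate kinase are practically irreversible. Those of the isomerases, aldolase, glyceraldehyde-3-phosphate dehydrogenase, phosphoglycerate kinase and enolase run in both directions and also serve gluconeogenesis, the making of sugar phosphates from smaller carbon compounds. Cellulose feeds the pathway only after secreted enzymes have cut it into cellobiose and glucose.

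The values are group means of read counts divided by library size factors (normalized counts), which the authors deposited as 1 value per group and gene. All means are given in this unit. Low means are sums of whole reads of fixed worth, and the size factors read from them were 0.807 to 1.09 for the 6 *A. nidulans* libraries, an estimated 37.7 to 48.3 M counted reads each. The reads of single libraries could be solved in this way for means of 100 to 300, with a single solution for 943 of 943 means on Avicel and 850 of 904 on no carbon. Even the lowest of the 10 glycolysis genes, AN3223, allowed 62 solutions on Avicel and 94 on no carbon. Their replicate error is therefore unknown, and no test of a single gene was made. In the solved genes, libraries of a group differed by a coefficient of variation of 17.6% on Avicel and 24.4% on no carbon beyond counting noise. With 3 libraries a group, this corresponds to a standard error of 0.25 for a log2 fold change, called the typical error here. A glycolysis gene may vary more or less than these genes do, so a difference above 2 typical errors (0.50) is a description and not a test. Counting alone contributes a standard error of 0.0049 to 0.024 to the log2 fold changes of the 10 genes. The labels were checked with cellulase genes: *cbhA* (AN5176), which encodes a cellobiohydrolase, had an authors' mean of 206832 on Avicel and 422 on no carbon, and the endoglucanase gene *eglA* (AN1285) had 73648 on Avicel and 247 on no carbon.

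The log2 fold changes of the glycolysis genes ran from -0.37 to 0.97. Glucokinase, aldolase, glyceraldehyde-3-phosphate dehydrogenase, phosphoglycerate kinase and enolase had means 1.53 to 1.95 times as high on Avicel as on no carbon. The other 5, which are hexokinase, glucose-6-phosphate isomerase, phosphofructokinase, triose-phosphate isomerase and pyruvate kinase, had log2 fold changes between -0.37 and 0.35. Thus 5 of 10 genes were at least 1.5-fold higher on Avicel, as were 16.1% of the 8571 *A. nidulans* genes with a mean of at least 100 over both groups. None of the 10 was at least 1.5-fold lower, against 11.9% of those genes. At a limit of 2-fold, 0 of the 10 were higher and 0 lower in the means as deposited, while the shares among all genes were 8.16% and 3.06%. Any gene past 1.5-fold lies more than 2 typical errors (0.50) above 0, so this limit adds nothing for the 5 higher genes. None of the other 5 lay that far above or below 0. With the larger error that means of 3 to 10 gave, 2 errors are 0.86. Only glucokinase and phosphoglycerate kinase lay more than that above 0, at percentiles 91.3 and 90.1 of the log2 fold changes of all 8571 genes. When the group means were scaled to equal sums, 3 genes were at least 1.5-fold higher, without glyceraldehyde-3-phosphate dehydrogenase and enolase. That scaling lowers the log2 fold changes of all genes alike. The share of all genes past 1.5-fold was counted only in the means as deposited.

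**Figure D1:**
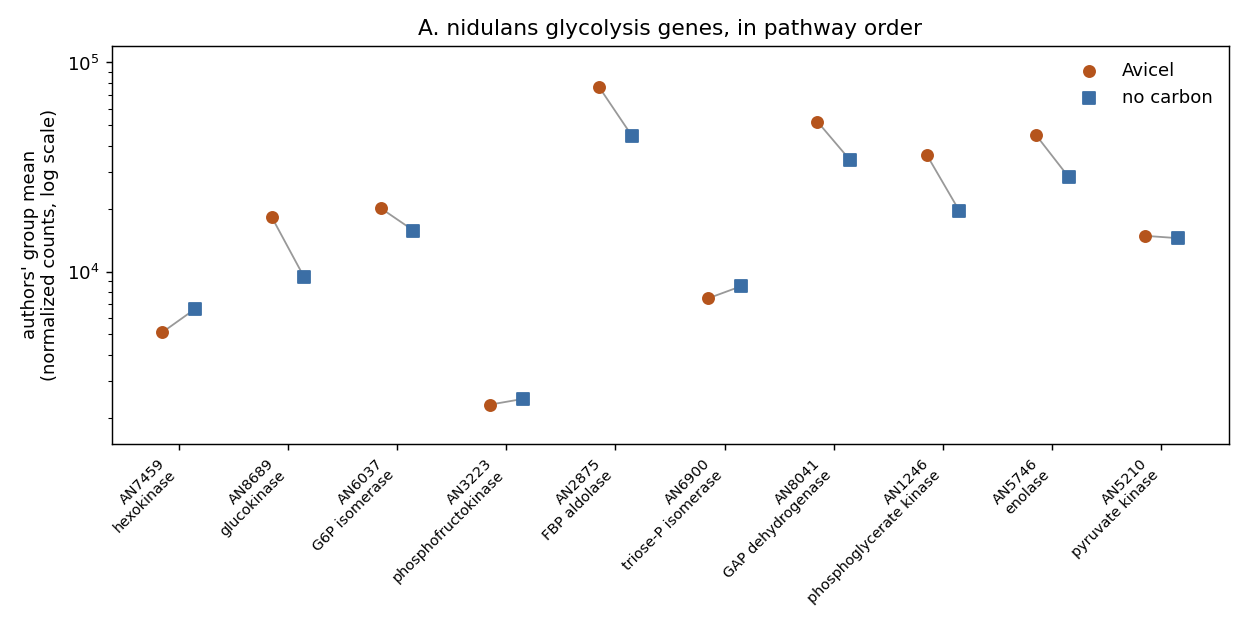
Authors' group means of the 10 glycolysis genes of *A. nidulans*, in normalized counts on a log axis, in the order of the pathway from left to right. Circles stand for Avicel and squares for no carbon, each a mean over 3 libraries, with no error bar because values per library were not used here. The steepest lines are those of glucokinase (18287 on Avicel, 9367 on no carbon) and phosphoglycerate kinase (36252 on Avicel, 19499 on no carbon), and heights of different genes are not to be compared, since counts also depend on transcript length.

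Both ends of the range lay at the first reaction, the phosphorylation of glucose. The glucokinase gene AN8689, whose enzyme in fungi acts mainly on glucose, had an authors' mean of 18287 on Avicel and 9367 on no carbon, in normalized counts. Its log2 fold change of 0.97 was the largest of the 10 and stood at percentile 91.3 of the log2 fold changes of all 8571 genes. The hexokinase gene AN7459, whose enzyme also accepts fructose, had 5123 on Avicel and 6624 on no carbon, a log2 fold change of -0.37 and the lowest of the 10. This lay within 2 typical errors of 0. The counts of glucokinase were 3.57 times those of hexokinase on Avicel and 1.41 times on no carbon. These ratios include the lengths of both transcripts, but the 2.52-fold difference between the ratios does not, nor does it depend on how the groups were scaled. On the log2 scale it is 1.34. For a difference between a pair of genes, 2 typical errors come to 0.71, or to 1.21 with the larger error of means of 3 to 10. These limits are for a single pair chosen beforehand whose genes vary independently. Hexokinase and glucokinase are the lowest and highest of the 10, so theirs is the largest difference of all pairs.

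Of the 4 genes from glucose-6-phosphate isomerase to triose-phosphate isomerase, aldolase alone lay more than 2 typical errors from 0. AN2875, the gene of the enzyme that cleaves fructose-1,6-bisphosphate, had an authors' mean of 76290 on Avicel and 44642 on no carbon (log2 fold change 0.77, percentile 88.1). Glucose-6-phosphate isomerase (AN6037), which makes fructose-6-phosphate, had 20093 on Avicel and 15711 on no carbon, with a log2 fold change of 0.35. Phosphofructokinase (AN3223), the enzyme of the committed step and known as a point of allosteric control, had 2308 on Avicel and 2457 on no carbon (log2 fold change -0.09). Triose-phosphate isomerase (AN6900), which interconverts the products of aldolase, had 7448 on Avicel and 8504 on no carbon (log2 fold change -0.19). The isomerases and phosphofructokinase lay within 2 typical errors of 0. The log2 fold change of aldolase exceeded that of phosphofructokinase by 0.86 and that of triose-phosphate isomerase by 0.96, both above the limit of 0.71 but below that of 1.21.

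Of the 4 genes from glyceraldehyde-3-phosphate dehydrogenase to pyruvate kinase, 3 were higher on Avicel and lay close together. Glyceraldehyde-3-phosphate dehydrogenase (AN8041), which oxidises the triose phosphate and makes NADH, had an authors' mean of 52101 on Avicel and 34069 on no carbon, a log2 fold change of 0.61. Phosphoglycerate kinase (AN1246), the first enzyme of the pathway to yield ATP, had 36252 on Avicel and 19499 on no carbon, a log2 fold change of 0.89. Enolase (AN5746), which makes phosphoenolpyruvate, had 45097 on Avicel and 28350 on no carbon, a log2 fold change of 0.67. These 3 genes stood at percentiles 84.6 to 90.1 of all genes, and the differences between them in pathway order were 0.28 and -0.23 on the log2 scale, within the limit of 0.71. Pyruvate kinase (AN5210), the last enzyme, had 14821 on Avicel and 14443 on no carbon. Its log2 fold change was 0.04, which became -0.10 when the group means were scaled to equal sums. It was lower than that of enolase by 0.63, within the limit for a pair.

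**Figure D2:**
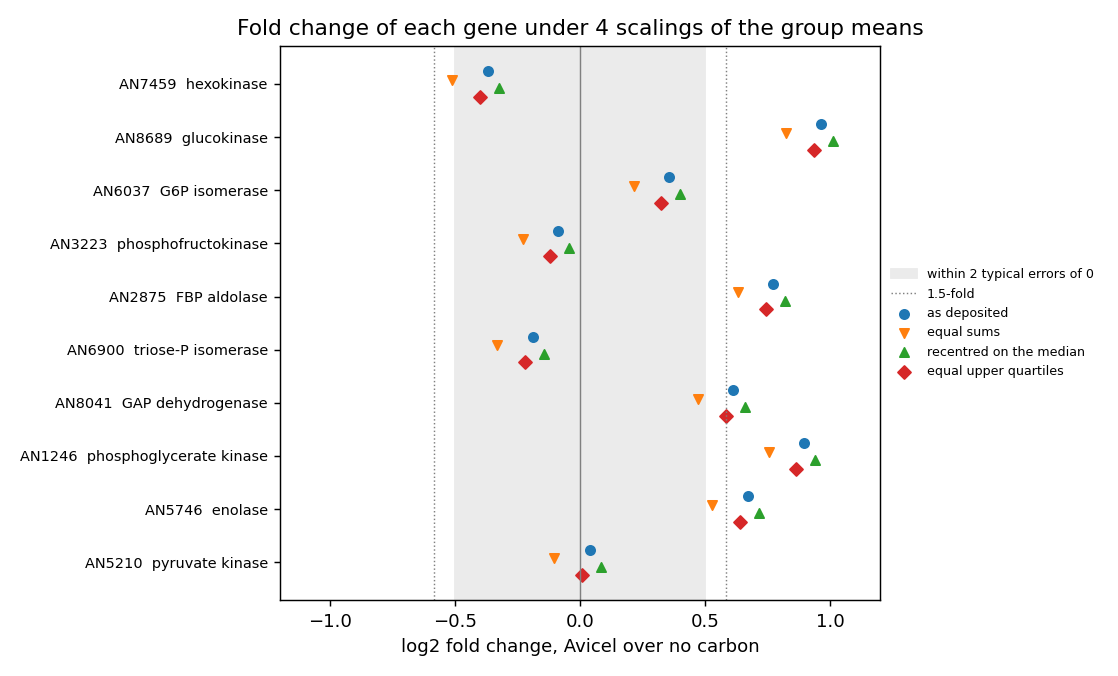
Log2 fold change of Avicel over no carbon for each of the 10 genes (x axis), in pathway order from top to bottom, from the means as deposited and after 3 other scalings of the group means. The grey band marks 2 typical errors (0.50) on either side of 0 and the dotted lines mark 1.5-fold. Glucokinase, aldolase and phosphoglycerate kinase stay beyond the upper dotted line under all 4 scalings, whereas glyceraldehyde-3-phosphate dehydrogenase (0.47) and enolase (0.53) do not with equal sums, nor does glyceraldehyde-3-phosphate dehydrogenase (0.58) with equal upper quartiles.

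Going from each gene to the next in the list, 4 of the 9 neighbouring pairs differed by more than 0.71 in log2 fold change, and over all pairs it was 18 of 45. Past the limit of 1.21 were 1 of the 9, glucokinase against hexokinase, and 2 of the 45. Pairs of all genes were not counted in this way, so whether glycolysis genes differ more than other genes is not known. The 5 genes at least 1.5-fold higher spanned 0.35 on the log2 scale, from 0.61 to 0.97, and the other 5 spanned 0.73. Since the 1.5-fold limit picked the higher genes and none reached 2-fold, their narrow span follows from that choice. Grouped by reaction type, a division made with the values known, 4 of the 6 genes of reversible steps and 1 of the 4 genes of irreversible steps were at least 1.5-fold higher on Avicel, beside 16.1% of all 8571 genes. The median log2 fold change was 0.64 for the reversible and -0.03 for the irreversible steps, and the difference was not tested. Glucokinase was the exception among the irreversible steps, and glucose-6-phosphate isomerase and triose-phosphate isomerase were the exceptions among the reversible ones.

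The 10 genes had a median log2 fold change of 0.48, with quartiles of -0.06 and 0.75. Over all 8571 genes it was -0.05, with quartiles of -0.35 and 0.33. Of the 3656 genes with a mean at least that of the lowest glycolysis gene, 14.4% were at least 1.5-fold higher on Avicel and 10.4% at least 1.5-fold lower, with a median log2 fold change of -0.04. Summed, the means of the glycolysis genes came to 277820 on Avicel and 183667 on no carbon, a ratio of 1.51. They held 0.595% of the summed Avicel column and 0.434% of the summed no carbon column. The 5 higher genes made up most of this, with a sum of 228027 on Avicel and 135927 on no carbon. The sum of the other 5 differed by a ratio of 1.04. Since the genes were divided by their own fold changes, a larger ratio for the 5 higher genes follows from the division. The 4 genes of irreversible steps together came to 40539 on Avicel and 32891 on no carbon, in the same unit, a ratio of 1.23. Of these sums, glucokinase held 18287 on Avicel and 9367 on no carbon. The 6 genes of reversible steps came to 237281 on Avicel and 150775 on no carbon, a ratio of 1.57.

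**Figure D3:**
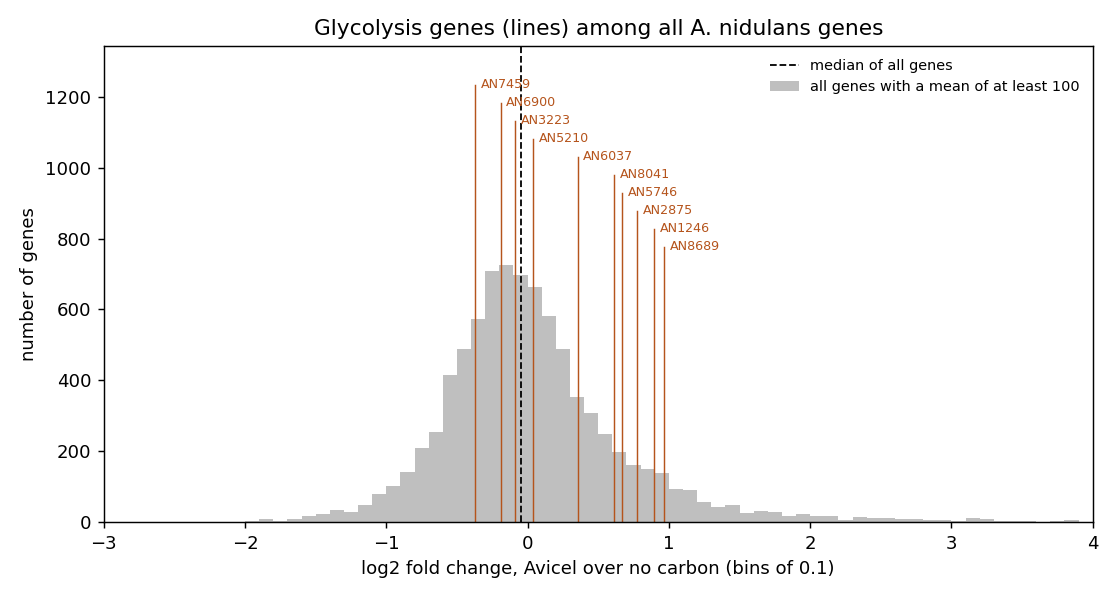
Distribution of the log2 fold change of Avicel over no carbon (x axis, bins of 0.1) over the *A. nidulans* genes with a mean of at least 100 (y axis, number of genes), with a line for each of the 10 glycolysis genes and a dashed line at the median of all genes (-0.05). The axis leaves out 1 gene below -3 and 78 genes at or above 4. The 5 higher glycolysis genes, between 0.61 and 0.97, lie on the upper flank and the others in the central part.

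Of the other genes considered, in or beside the pathway, 4 were annotated in the sources used here. All 4 came from lists that the study drew up around genes induced in either species. Malic enzyme and glycerone kinase, which are among them, are not steps of glycolysis. Because of those lists, the 4 genes are not an unselected sample. At least 1.5-fold higher on Avicel were 2 of the 4, a ketose-bisphosphate aldolase and the malic enzyme gene, beside 16.1% of all 8571 genes. As far lower were 0 of the 4, beside 11.9% of all. The gene of a ketose-1,6-bisphosphate aldolase, AN2334, had an authors' mean of 1657 on Avicel and 1044 on no carbon (log2 fold change 0.67), beside the 0.77 of the aldolase gene AN2875. With equal sums the log2 fold change of AN2334 was 0.53, which is below 1.5-fold. The gene *tpiB* (AN5908) is given in the paper as a mitochondrial triose-phosphate isomerase, among genes of xylose use. Its mean was 2375 on Avicel and 2502 on no carbon (log2 fold change -0.08), next to the -0.19 of AN6900. The paper lists *tpiB* in clusters that varied little in *A. nidulans*, drawn up from the same libraries. Its small change therefore goes with that list and does not bear on AN6900. The glycerone kinase gene AN0034, whose enzyme makes dihydroxyacetone phosphate, had 8745 on Avicel and 8235 on no carbon, a log2 fold change of 0.09 that became -0.05 with equal sums. The malic enzyme gene *maeA* (AN6168), whose product makes pyruvate from malate without passing through pyruvate kinase, had 32755 on Avicel and 6912 on no carbon. Its log2 fold change of 2.24 exceeded that of every glycolysis gene, but it belongs to a list the study chose for strong induction in these libraries.

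In *Neurospora crassa*, cultures grown on sucrose were shifted to Avicel or no carbon for 4 h at 25°C and normalized in a separate table, so levels are not on a common scale. Counterparts of 4 genes could be found by their RefSeq symbols. For glyceraldehyde-3-phosphate dehydrogenase, the log2 fold change was 0.61 in *A. nidulans* (AN8041) and 1.10 in *N. crassa* (*gpd-1*, NCU01528). For phosphoglycerate kinase it was 0.89 (AN1246) and 0.56 (*pgk*, NCU07914). Aldolase had 0.77 in *A. nidulans* (AN2875) and -0.27 in *N. crassa* (*fba*, NCU07807), and glucose-6-phosphate isomerase had 0.35 (AN6037) and -0.27 (*gpi-1*, NCU07281). The signs held under equal sums, which move every *N. crassa* log2 fold change by -0.45 (*pgk* then had 0.10). No typical error was worked out for *N. crassa*, so whether these values differ from 0 is not known. For its means of 3 to 10, libraries differed by a coefficient of variation of 40.2% on Avicel and 37.5% on no carbon beyond counting noise. The *N. crassa* size factors were 0.169 to 0.957 on Avicel and 1.03 to 2.68 on no carbon, so depth differed between the groups. A single Avicel library had the 0.169, the smallest of its table. The part of depth or of that library in these values was not tested. The difference between the species was not tested either.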

How the data were processed

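Of 22 samples, 12 wild-type libraries stand behind the deposited tables, and the other 10, from mutant strains, were not analysed here. The authors mapped reads with TopHat2 2.0.4 to predicted transcripts of the Broad Institute, counted those on unique exons with HTSeq and normalized the counts with DESeq (versions of HTSeq and DESeq are not given in the sources used here). The deposited signal values are group means of counts divided by size factors, 1 table per species. The tables also hold the authors' own fold changes and p-values, which were not used. Since group means have no replicates, the test planned on counts per library was replaced by log2 ratios of the means.

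Low means, written with 10 significant digits, were solved for whole reads of 3 libraries, and the dispersion was set so that the scaled squared deviations had the median of a chi-square distribution. In data simulated for means of 100 to 300, 3775 solved means gave the right reads and 0 gave wrong ones, while 11 had none or several solutions. The simulated size factors lay farther apart than the closest of the no carbon libraries (1.041 and 1.036). The simulation was therefore an easier case than the no carbon data. Members, lists and limits were chosen with earlier results of these data known. Named were all members, the genes in or beside the pathway and the counterparts that a source annotates, *cbhA* and *eglA*. Symbols for *N. crassa* came from RefSeq (assembly NC12). Sequences and transcript lengths of *A. nidulans* and markers of conidiophores were not used here. Python 3.11.15, numpy 2.4.6, pandas 2.3.3, scipy 1.17.1 and matplotlib 3.10.9 were used.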

Additional observations from a re-analysis of the deposited data

How the results depend on the processing

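With group means scaled to equal sums, which moves every *A. nidulans* log2 fold change by -0.14, 3 of the 10 genes were at least 1.5-fold higher on Avicel in place of 5, their median log2 fold change was 0.34 and that of their sum 0.46, against 0.48 and 0.60 as deposited. The log2 fold change of the sum was 0.64 when recentred on the median of all genes and 0.57 with equal upper quartiles, which left 5 and 4 genes past 1.5-fold. It was 0.54 without aldolase, whose mean on Avicel was the highest of the 10. The median was 0.35 without glucokinase, a setting added after the data were seen. In the means as deposited no gene reached 2-fold (0 higher, 0 lower), whereas 1 gene, glucokinase, was 2-fold higher when recentred on the median, which moves every log2 fold change by 0.05. Shares of all genes past either limit were not counted under these other scalings. Under the laxest limit tried, a mean at least 25.0% above that of the other group, 6 of the 10 genes and 25.2% of all 8571 were higher on Avicel, and 1 gene, hexokinase (Avicel mean 0.773 times that of no carbon), and 27.0% of all were lower. The typical error of a log2 fold change was 0.43 from means of 3 to 10, the range set first, 0.47 from 3 to 6 and 0.39 from 6 to 10. The range of 100 to 300 was chosen after the data were seen. With the error of 0.43, 2 genes (glucokinase and phosphoglycerate kinase) in place of 5 lay more than 2 errors above 0. They stood at percentiles 91.3 and 90.1 of all 8571 genes, and the share of all genes past that limit was not counted. No paired analysis was possible because the tables hold group means, and for the same reason no replicate could be left out.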
